A study of Bos taurus with 12 samples.

Results

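The complement system is a cascade of blood and tissue proteins that marks and attacks foreign or damaged cells. The 9 genes described here are components of this cascade and its regulators: *C1R*, *C1S*, *C3*, *CFB*, *CFD*, *C7*, *SERPING1*, *CFI* and *CD55*. They were taken by gene name from the deposited mRNA table, which holds 33714 entries. Of the 9 names, 9 were found, 7 in entries of their own and 2 (*C1R* and *CFB*) in entries that merge neighbouring genes. The study followed preadipocytes, the precursors of fat cells, that had been isolated from newborn Qinchuan calves (longissimus dorsi muscle) and were induced in culture to become intramuscular adipocytes. RNA was sequenced from 12 libraries on 4 days, with 3 libraries for each day, which the paper calls biological replicates. Whether the 3 cultures of a day came from different animals is not stated, so the p-values below measure the spread between these cultures.

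The 0 d group holds cells near confluence that had received no inducing agent. The 3 d, 6 d and 9 d groups hold cells 3, 6 and 9 days after induction. Induction lasted 48 hours in medium with dexamethasone (a synthetic glucocorticoid), IBMX (an inhibitor of phosphodiesterases) and insulin, and medium with insulin alone followed. Cells of all 3 later groups had therefore met all 3 agents and were in insulin alone when they were harvested. The labels and the paper give different doses of dexamethasone and insulin. No libraries of uninduced cells from later days were deposited, so that induction and days in culture cannot be told apart.

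As background, complement is set off along 3 routes. In the classical route C1q binds to antibodies or surfaces and switches on the serine proteases C1r and C1s, which cut C4 and C2, while in the lectin route collectins and ficolins do the same through the MASP proteases. In the alternative route factor B, cut by factor D, joins C3b to form an enzyme that cuts further C3, and all routes end in the membrane attack complex of C5b, C6, C7, C8 and C9. Most plasma complement is made in the liver, and adipose tissue is a well-known extrahepatic source. Factor D is also known as adipsin, the name it was given in fat cells, and the C3 fragment C3a-desArg, also called acylation-stimulating protein, acts on fat storage.

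Expression is given as FPKM, a count of sequenced fragments scaled by transcript length and library size, which the authors calculated. Because of the scaling by length, levels of different genes can be set side by side. The FPKM of a library summed to 1221194 to 1371794. The table holds no read counts, and the depth behind a single FPKM is unknown. A value of exactly 0 is given below as listed at 0, since it can also stand for an estimate that failed. Days were compared with limma on log2(FPKM + 0.1) for the 15402 mRNAs with a mean FPKM of at least 0.1, and every fold change below is on that scale, which understates changes of low genes. A gene is called higher or lower, or said to have risen or fallen, when its absolute log2 fold change is over 1 and its adjusted p-value under 0.05. Of the 9 complement genes, 8 passed the filter. *CFD* did not and was not tested. In bulk RNA, fewer cells of a type and less RNA per cell cannot be told apart.

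Among the 9 genes, the strongest signal on day 0 came from the classical proteases, and on day 3 from *C7* and *CFB*. The summed FPKM of the 9 genes was 110.4 ± 4.24 (SD, n = 3) on day 0, 367 ± 8.06 on day 3, 94.9 ± 0.552 on day 6 and 123 ± 14.7 on day 9. The 3 d libraries lay far above all others, and those of 6 d below all others. As a part of all mRNA FPKM, in ppm, the sum was 84.3 on day 0, 294 on day 3, 72.5 on day 6 and 90.3 on day 9. *C1R* and *C1S* made up 78.5% of the sum on day 0, 17.4% on day 3, 29.3% on day 6 and 54.2% on day 9. *C7* and *CFB* made up 8.10%, 77.6%, 60.9% and 37.1% on the same days. The *CFB* value also holds *C2*, a gene of the classical route. These sums are descriptions and were not tested.

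**Figure D1:**
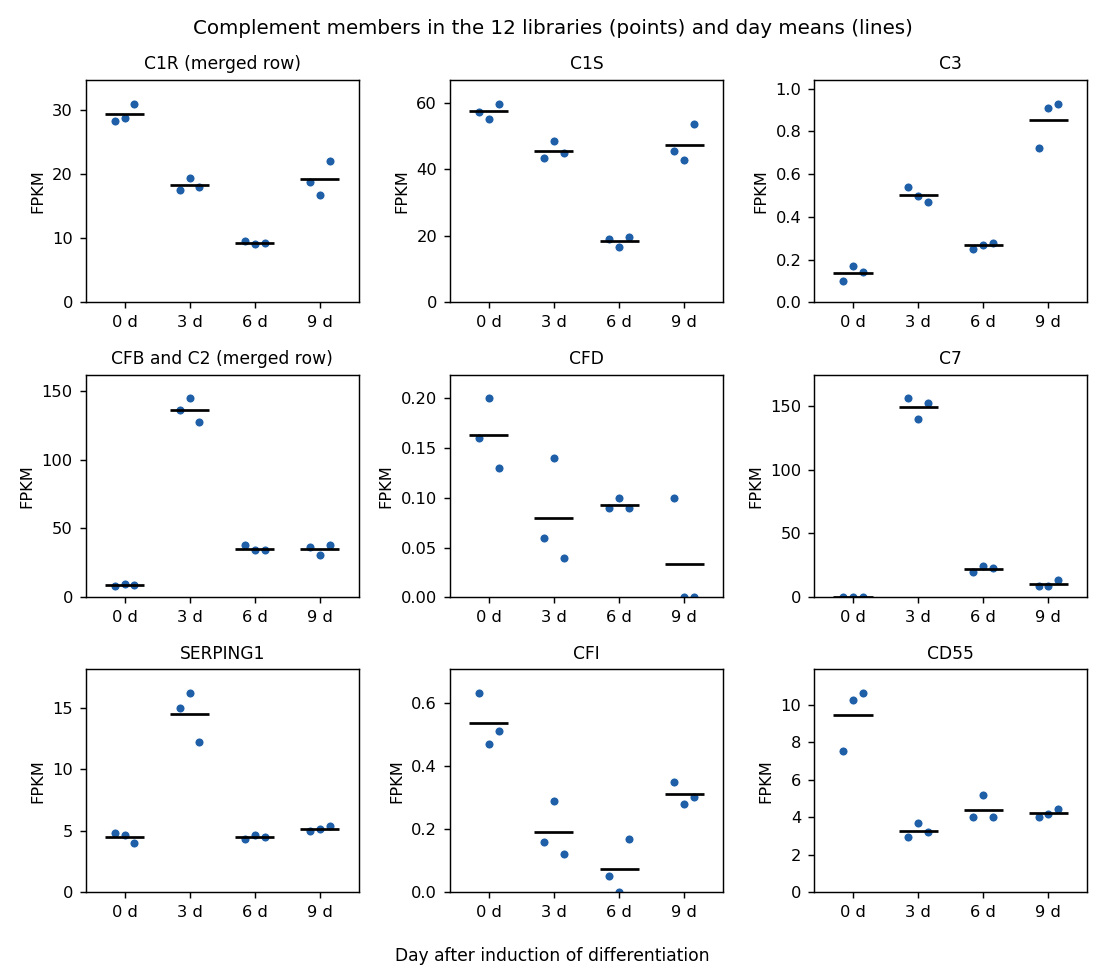
FPKM of the 9 complement genes (vertical axes, linear and starting at 0, a different scale in each panel) on each day (horizontal axes). Each point is 1 library and each line the mean of the 3 libraries of a day; *C7* and *CFB* stand highest on day 3, *C1R* and *C1S* lowest on day 6, and *CFD* does not exceed 0.2.

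*C1R* and *C1S* encode the proteases of the C1 complex, and they lie side by side on chromosome 5 in the RefSeq annotation. *C1S* was at 57.1, 55.2 and 59.7 FPKM on day 0, 43.3, 48.6 and 45.0 on day 3, 19.2, 16.7 and 19.6 on day 6, and 45.4, 42.9 and 53.6 on day 9. All 3 libraries of 6 d lay below those of every other day, the 0 d libraries lay above the rest, and the 3 d and 9 d libraries overlapped. *C1S* fell by 1.63 on the log2 scale on day 6 against day 0 (SE 0.09, adjusted p = 7.32e-07), and from day 3 to day 6 it fell by 1.2997 (adjusted p = 1.9e-06). It then rose by 1.35 from day 6 to day 9 (adjusted p = 9.26e-06). Against day 0, its fold changes of -0.33 on day 3 and -0.28 on day 9 were small (adjusted p = 0.014 and 0.0396), and neither was called.

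The entry with *C1R* also holds LOC112446756, the neighbour on its other side, and the reads of the pair cannot be told apart. Its FPKM were 28.3, 28.8 and 31.0 on day 0, 17.5, 19.4 and 18.0 on day 3, 9.63, 9.08 and 9.27 on day 6, and 18.8, 16.7 and 22.0 on day 9. The order of the days was that of *C1S*, with 0 d highest, 6 d lowest, and 9 d and 3 d overlapping between them. *C1R* fell by 1.64 on day 6 against day 0 (SE 0.10, adjusted p = 7.6e-07). From day 6 to day 9 it rose by 1.03 (adjusted p = 5.65e-05), a call that ended with a pseudocount of 1 (0.96) and without the third 9 d library (0.92). Its fold changes on day 3 against day 0 (-0.68), on day 9 against day 0 (-0.62) and on day 6 against day 3 (-0.96) were not called. The ratio of *C1S* to *C1R* FPKM was 1.95 ± 0.0549 (SD) on day 0, 2.49 ± 0.0127 on day 3, 1.98 ± 0.136 on day 6 and 2.47 ± 0.0839 on day 9. *C1S* was thus the higher of the pair on each day, with larger ratios on days 3 and 9 than on days 0 and 6.

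*C3* encodes the protein on which all routes meet. It was at 0.1, 0.17 and 0.14 FPKM on day 0, 0.54, 0.5 and 0.47 on day 3, 0.25, 0.27 and 0.28 on day 6, and 0.72, 0.91 and 0.93 on day 9. No pair of days overlapped, with 9 d highest and 0 d lowest, but all values stayed below 1. *C3* rose by 1.36 on day 3 against day 0 (SE 0.14, adjusted p = 1.81e-05), by 2.01 on day 9 against day 0 (adjusted p = 3.11e-06) and by 1.37 from day 6 to day 9 (adjusted p = 9.74e-05). Its fold changes on day 6 against day 0 (0.64) and against day 3 (-0.72) were not called. At these low levels the pseudocount weighs much: with a pseudocount of 1 the 3 rises came to 0.40, 0.70 and 0.55 and were no longer called. On day 9, when *C3* was highest, 33.4% of all entries of the table had a higher mean FPKM.

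Factor B supplies the catalytic part of the alternative C3-cutting enzyme, and its gene is followed on chromosome 23 by *C2*, which has the same part in the classical route. The table merges the genes in 1 entry, so that *CFB* and *C2* cannot be told apart. This entry was at 8.17, 9.39 and 8.85 FPKM on day 0, 136, 144 and 127 on day 3, 37.8, 34.1 and 34.4 on day 6, and 36.5, 30.6 and 37.9 on day 9. All libraries of 3 d lay above those of 6 d and 9 d, which overlapped, and all of these above 0 d. *CFB* rose by 3.93 on day 3 against day 0 (SE 0.09, adjusted p = 5.4e-10), which ranked 68 from the highest among the 15402 tested mRNAs. It fell by 1.94 from day 3 to day 6 (adjusted p = 1.06e-07) and was still higher by 1.996 on day 6 (adjusted p = 1.81e-07) and by 1.98 on day 9 (adjusted p = 2.6e-07) than on day 0. Between days 6 and 9 the fold change was -0.02 (adjusted p = 0.917), and 0.02 after FPKM were rescaled between libraries.

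Factor D is the protease that cuts factor B. *CFD* was at 0.16, 0.2 and 0.13 FPKM on day 0, 0.06, 0.14 and 0.04 on day 3, 0.09, 0.1 and 0.09 on day 6, and 0.1, 0 and 0 on day 9. It was near or at the bottom of the measurable range in each library, with the 0 d libraries above those of 6 d and 9 d and overlapping those of 3 d. Its mean over the 12 libraries (0.0925) was below the filter. Without the filter its fold change on day 9 against day 0 was -1.06 with an adjusted p of 0.0188, which would be a call, and in the other comparisons the adjusted p was 0.138 to 0.758.

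C7 is the terminal component that anchors the growing attack complex in a membrane. *C7* was listed at 0 in the first 0 d library and at 0.32 and 0.11 FPKM in the others, at 156, 139 and 152 on day 3, at 19.6, 24.3 and 23.2 on day 6, and at 8.93, 8.85 and 13.9 on day 9. No library of any day reached into the range of another day, and the order ran from 3 d through 6 d and 9 d to 0 d. *C7* rose by 9.49 on day 3 against day 0 (SE 0.42, adjusted p = 3.23e-08), the highest of the 15402 fold changes in that comparison. It was also higher by 6.76 on day 6 (adjusted p = 1.09e-06, rank 5) and by 5.66 on day 9 (adjusted p = 4.66e-06, rank 4). Because 0 d lies near 0, these sizes depend on the pseudocount and ran from 7.04 to 10.98 on day 3, from 4.36 to 8.24 on day 6 and from 3.32 to 7.14 on day 9 over the settings tried, and all were called. Nor was the top rank on day 3 fixed. With each library left out, *C7* ran from 8.97 to 10.00 on day 3 against day 0, and *ZBTB16* from 9.08 to 9.65.

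From day 3 to day 6 *C7* fell by 2.73 (adjusted p = 0.000354). Its fold change of -1.10 from day 6 to day 9 was not called (adjusted p = 0.0943), although the libraries of these days did not overlap. It was called with a pseudocount of 1 (adjusted p = 0.0016) and when only the 6 libraries of these days were fitted (adjusted p = 0.0185). The adjusted p of this difference over all settings ran from 0.0016 to 0.498. On day 0, 43.9% of all entries had a higher mean FPKM than *C7*, and 3.18% did on day 3.

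The regulators SERPING1, factor I and CD55 complete the group. SERPING1, the C1 inhibitor, binds and inactivates C1r, C1s and the MASP proteases. *SERPING1* was at 4.78, 4.66 and 4.03 FPKM on day 0, 15.0, 16.2 and 12.3 on day 3, 4.29, 4.66 and 4.52 on day 6, and 4.96, 5.15 and 5.41 on day 9. The 3 d libraries stood above all others, 9 d lay just above 0 d and 6 d, and those overlapped. *SERPING1* rose by 1.66 on day 3 against day 0 (SE 0.11, adjusted p = 6.36e-07) and fell by 1.66 from day 3 to day 6 (adjusted p = 8.94e-07). On day 6 the fold change against day 0 was 0.00 (adjusted p = 0.987), and its sign turned with the library left out. On day 9 it was 0.20 against day 0 and 0.20 against day 6, neither of them called. The ratio of *SERPING1* to *C1S* FPKM was 0.0785 ± 0.0096 (SD) on day 0, 0.317 ± 0.0392 on day 3, 0.245 ± 0.0300 on day 6 and 0.110 ± 0.0096 on day 9. The mRNA of the inhibitor was thus below that of its target protease C1s in all libraries, and protein was not measured. The ratio had its highest mean on day 3, and the libraries of 3 d and 6 d overlapped.

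Factor I is a plasma protease that cuts C3b and C4b with the help of cofactors. *CFI* was at 0.63, 0.47 and 0.51 FPKM on day 0, 0.16, 0.29 and 0.12 on day 3, 0.05, 0 and 0.17 on day 6, and 0.35, 0.28 and 0.3 on day 9. The 0 d libraries were highest, and neighbouring days overlapped from 9 d through 3 d to 6 d. *CFI* fell by 1.17 on day 3 against day 0 (SE 0.33, adjusted p = 0.0135) and by 1.99 on day 6 against day 0 (adjusted p = 0.00108), and it rose by 1.36 from day 6 to day 9 (adjusted p = 0.0166). Its fold changes on day 9 against day 0 (-0.63) and on day 6 against day 3 (-0.82) were not called. The calls of *CFI* changed under more settings than those of any other gene of the group. With a pseudocount of 1 none of the 3 was made (-0.37, -0.52 and 0.29). The call on day 3 also ended with a pseudocount of 0.01 (adjusted p = 0.154) and without the third 3 d library (-0.99, adjusted p = 0.0519). The call from day 6 to day 9 ended when only these 6 libraries were fitted (adjusted p = 0.0598) and without the first 6 d library (adjusted p = 0.0504), the second 6 d library (adjusted p = 0.05) or the first 9 d library (adjusted p = 0.0549). Without the third 6 d library, the difference between 6 d and 3 d was called (-1.201, adjusted p = 0.0058). Over all settings, the adjusted p ran from 0.00136 to 0.154 for day 3 against day 0, from 0.00271 to 0.0598 for day 9 against day 6 and from 0.0058 to 0.223 for day 6 against day 3.

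CD55, the decay-accelerating factor, sits on the cell surface and takes apart the enzymes that cut C3. *CD55* was at 7.51, 10.3 and 10.6 FPKM on day 0, 2.95, 3.67 and 3.21 on day 3, 3.99, 5.16 and 3.99 on day 6, and 4.02, 4.16 and 4.42 on day 9. All induced libraries lay below those of 0 d, with 3 d lowest and 6 d and 9 d overlapping. *CD55* fell by 1.49 on day 3 (SE 0.15, adjusted p = 1.69e-05), by 1.09 on day 6 (adjusted p = 0.000331) and by 1.14 on day 9 (adjusted p = 0.000265), each against day 0. The calls on days 6 and 9 are close to the threshold. They ended with a pseudocount of 1 (-0.95 and -0.995) and after rescaling between libraries (-0.92 and -0.93), and that on day 6 also without the third 0 d library (-0.998). Its fold changes from day 3 to day 6 (0.40) and from day 6 to day 9 (-0.05) were not called.

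**Figure D2:**
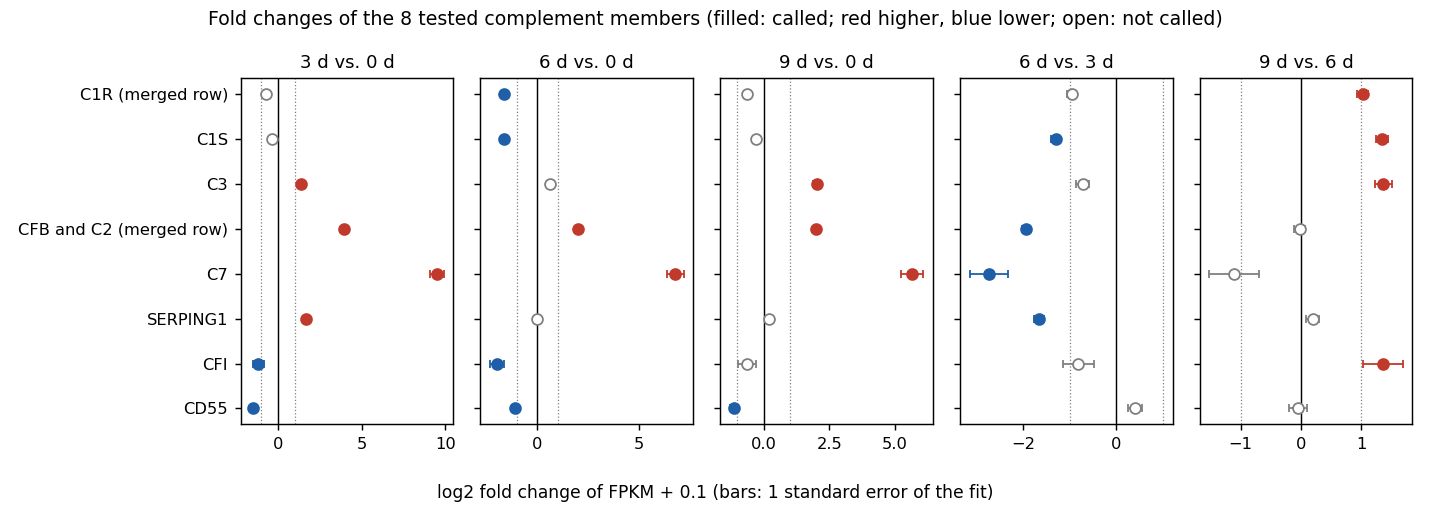
Log2 fold changes of FPKM + 0.1 (horizontal axes, a different scale in each panel) of the 8 tested complement genes (vertical axis) in the 5 comparisons. Points are estimates from limma, bars 1 standard error, filled points were called (red higher, blue lower), and dotted lines mark a change of 1 in either direction; *C7* reaches 9.49 on day 3 against day 0.

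On day 3 against day 0, the comparison that spans the inducing medium, *C7*, *C3*, *CFB* and *SERPING1* rose and *CFI* and *CD55* fell. This was 6 of the 8 tested genes, against 23.3% of all tested mRNAs. Higher were 4 (8.06% of all) and lower 2 (15.2% of all). Their median log2 fold change was 0.51, beside -0.06 for all tested mRNAs. Without the merged entries, an alternative chosen after seeing the data, 5 were called. The complement genes and the lists below were chosen with earlier results of these data known. Their counts in this and the other comparisons are therefore descriptions and no test.

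On day 6 against day 0, *C7* and *CFB* were higher and *C1R*, *C1S*, *CFI* and *CD55* lower. The count was 6 of 8, against 11.4% of all tested mRNAs, with 2 higher (3.39% of all) and 4 lower (7.97% of all). The median was -0.54, beside -0.15 for all. On day 9 against day 0, *C7*, *C3* and *CFB* were higher and *CD55* was lower. The count was 4 of 8, against 10.9% of all, with 3 higher (3.41% of all) and 1 lower (7.47% of all), and the median was -0.04, beside -0.19 for all. Without the merged entries 4 and 3 were called. With a pseudocount of 1, 2 were called on day 9, *C7* and *CFB*. The 3 comparisons with 0 d share the 0 d libraries and are not independent of each other.

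The split of calls by direction depended on scaling in both comparisons. When FPKM were rescaled between libraries by their median ratio, the median fold change of all tested mRNAs shifted by 0.16 on day 6 and by 0.19 on day 9 against day 0. The share of all calls that were higher then moved from 29.9% to 40.6% on day 6 and from 31.3% to 46.6% on day 9. On the rescaled values, the falls of *C1R* and *C1S* on day 6 were -1.47 and -1.46 and still called. The rises of *C7* (6.85 and 5.79) and *CFB* (2.17 and 2.18) on days 6 and 9 and that of *C3* on day 9 (2.16) were called as well. *CD55* no longer was.

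From day 3 to day 6 *C7*, *C1S*, *CFB* and *SERPING1* fell, which is 4 of 8, against 19.1% of all tested mRNAs. All 4 were lower, as were 9.23% of all, and 9.85% of all were higher. The median was -1.13, beside -0.09 for all. *CD55* alone had a fold change above 0 (0.40), and it was not called. From day 6 to day 9 *C3*, *C1R*, *C1S* and *CFI* rose, again 4 of 8, against 4.43% of all. All 4 were higher, as were 2.55% of all, and 1.89% of all were lower, with a median of 0.61 beside -0.04 for all. Without the merged entries 3 were called in each step. With a pseudocount of 1, 2 were called from day 6 to day 9, *C1S* higher and *C7* lower. The genes that rose from day 6 to day 9 include *C1R*, *C1S* and *CFI*, which on day 6 had been lower than on day 0. *CFB* and *SERPING1* had fallen from day 3 to day 6 and were not called from day 6 to day 9.

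**Figure D3:**
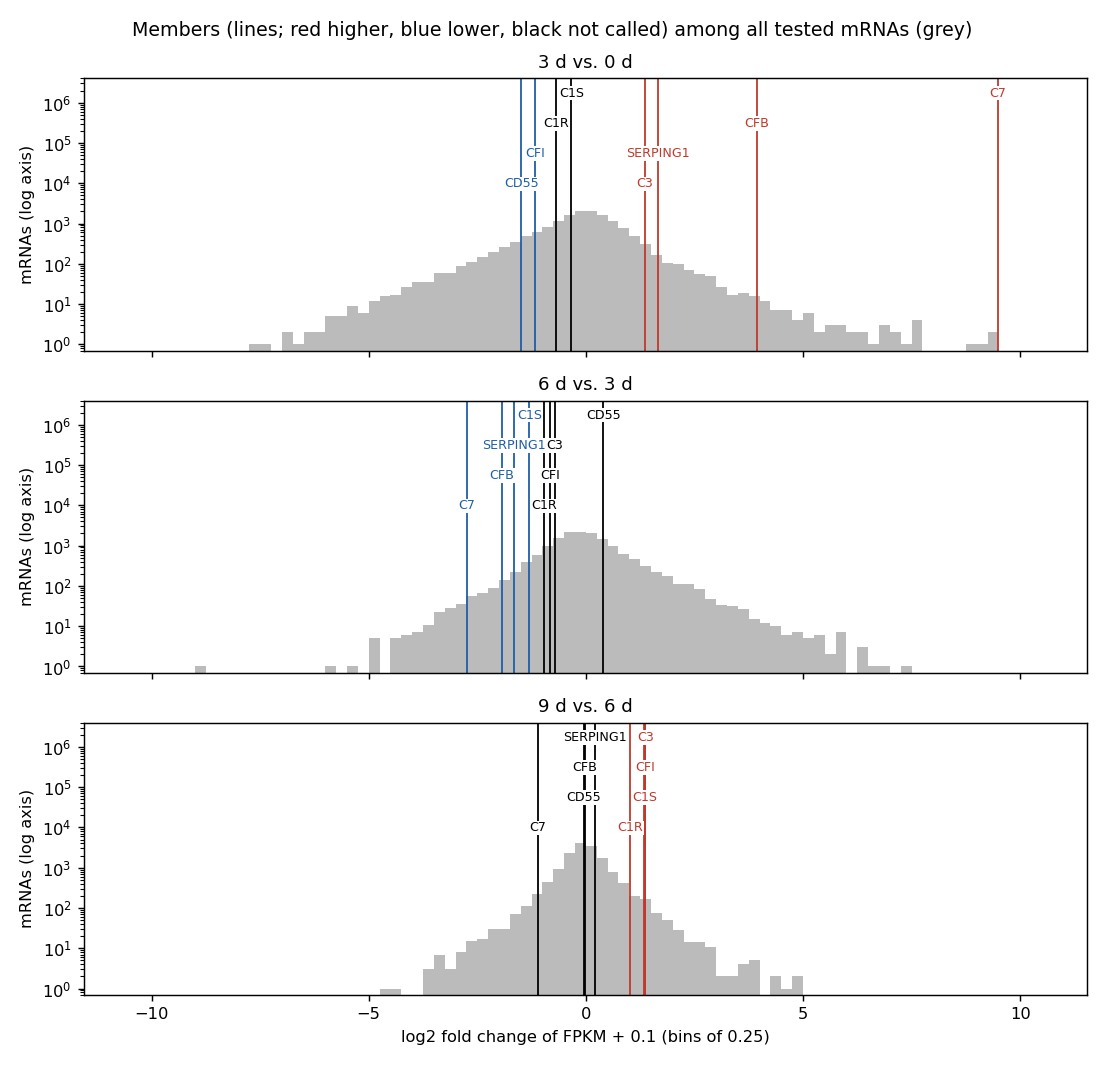
Distribution of the log2 fold changes of the 15402 tested mRNAs (grey, in bins of 0.25; vertical axes are log axes of the number of mRNAs) in 3 comparisons. Lines mark the tested complement genes (red called higher, blue called lower, black not called); *C7* stands at the right end on day 3 against day 0, and on day 6 against day 3 all lines but that of *CD55* lie left of 0.

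Other genes of the pathway were taken from a list of 42. *C2* was measured only in the merged entry with *CFB* and *CR1* was not found, which leaves 40. Of these, 11 were listed at 0 in all 12 libraries, 27 (these 11 included) had a mean FPKM under 0.1, and 13 were tested. Called on day 3 against day 0 were 3 of 13 (all higher), where 23.3% of all tested mRNAs were called and 8.06% called higher. On day 6 against day 0 these were 5 of 13 (1 higher, 4 lower), beside 11.4% of all, and 5 of 13 on day 9 (3 higher, 2 lower), beside 10.9%. These counts include *SUSD4* on day 6 and *COLEC10* on day 9, each tested only because of the day on which it was high. From day 3 to day 6, 3 of 13 fell, beside 19.1% of all called and 9.23% lower, and from day 6 to day 9, 4 of 13 rose, beside 4.43% called and 2.55% higher, *COLEC10* again among them. Their median fold changes in these 5 comparisons were 0.29, -0.54, -0.23, -0.38 and 0.44.

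Of the genes for C1q, which opens the classical route, *C1QA* and *C1QC* were listed at 0 in all libraries, and *C1QB* reached 0.03 FPKM in 1 library. *C4A* encodes the C4 protein that C1s and MASP-2 cut, and it is merged with LOC107131209. Its FPKM were 29.0, 30.6 and 31.3 on day 0, 34.8, 39.0 and 37.1 on day 3, 4.77, 6.22 and 5.27 on day 6, and 8.27, 6.38 and 10.3 on day 9. The libraries of 0 d and 3 d lay far above those of 6 d and 9 d, and no pair of days overlapped. *C4A* fell by 2.75 from day 3 to day 6 (SE 0.16, adjusted p = 3.05e-07) and was lower than on day 0 on day 6 (fold change -2.47, adjusted p = 1.3e-06) and on day 9 (fold change -1.88, adjusted p = 1.04e-05).

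The lectin route held the complement mRNA with the highest mean FPKM over the 12 libraries. *MASP1*, which gives rise to the proteases MASP-1 and MASP-3, was at 106, 106 and 119 FPKM on day 0, 681, 842 and 796 on day 3, 487, 444 and 471 on day 6, and 1639.7, 1534 and 1394 on day 9. No pair of days overlapped, and 9 d was highest. *MASP1* rose by 2.81 on day 3 (SE 0.09, adjusted p = 3.65e-09), by 2.08 on day 6 (adjusted p = 1.1e-07) and by 3.79 on day 9 (adjusted p = 4.41e-09) against day 0. It also rose by 1.70 from day 6 to day 9 (adjusted p = 1.59e-06). Its fold change from day 3 to day 6 was -0.72 and was not called. In each library its FPKM alone was close to or above the sum of the 9 complement genes described first.

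*MASP2*, whose protein cuts C4 and C2, was at 2.34, 2.2 and 2.66 FPKM on day 0, 6.41, 4.91 and 6.25 on day 3, 2.58, 1.34 and 1.18 on day 6, and 2.58, 1.31 and 2.2 on day 9. The 3 d libraries stood above all others, which overlapped. It rose by 1.25 on day 3 against day 0 (adjusted p = 0.00536) and fell by 1.80 from day 3 to day 6 (adjusted p = 0.000647). *COLEC12*, a scavenger receptor of the collectin family, was at 2.42, 2.13 and 1.86 FPKM on day 0, 6.73, 7.19 and 6.91 on day 3, 0.27, 0.32 and 0.41 on day 6, and 0.99, 0.9 and 0.73 on day 9. No pair of days overlapped, with 3 d above and 6 d and 9 d below 0 d. It rose by 1.66 on day 3 against day 0 (SE 0.15, adjusted p = 6.6e-06) and fell by 4.03 from day 3 to day 6 (adjusted p = 1.47e-08). Against day 0 its fold changes were -2.37 on day 6 (adjusted p = 1.29e-06) and -1.202 on day 9 (adjusted p = 0.000169), both called lower. From day 6 to day 9 it rose by 1.17 (adjusted p = 0.000426). The calls of *COLEC12* on day 9 against day 0 and from day 6 to day 9 ended with a pseudocount of 1 (-0.74 and 0.49).

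Of the soluble pattern receptors of the lectin route, *MBL1* and *COLEC11* were listed at 0 in all libraries, *MBL2* reached 0.02 FPKM in 1 library, and *FCN1* had a mean of 0.0925. Without the filter *FCN1* would be called higher on day 6 against day 0 (1.05, adjusted p = 0.00303). *COLEC10* had a listing of 0 in each 3 d library and values of 0.35, 0.43 and 0.21 on day 9. It rose by 1.41 on day 9 against day 0 (adjusted p = 0.000408) and by 1.195 from day 6 to day 9 (adjusted p = 0.00215), and neither rise was called with a pseudocount of 1 (0.32 and 0.29). *COLEC10* was tested only because of its 9 d values: its mean was 0.118, and 0.0478 without those libraries.

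Among the partners of *C7* in the attack complex, *C8G* alone was tested. *C5* and *C8A* were listed at 0 in all libraries, *C8B* did not exceed 0.03 FPKM and *C9* did not exceed 0.1. *C6* was at 0.24, 0.21 and 0.18 FPKM on day 3 and at 0.08 or less in all other libraries, and its mean was below the filter. Without the filter *C6* would be called higher on day 3 against day 0 (1.37, adjusted p = 0.000102) and lower on day 6 against day 3 (-1.06, adjusted p = 0.000736). *C8G*, whose protein belongs to the lipocalins and is not essential for the pore, was at 3.01 to 6.26 FPKM and was not called in any of the 5 comparisons. Properdin (*CFP*), which stabilises the alternative enzyme, had a mean of 0.0942 FPKM.

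*CLU*, a soluble regulator outside the 9 genes that keeps attack complexes from inserting into membranes, was at 24.4 to 46.7 FPKM and was not called.

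On the cell surface, *CD59*, which blocks the last step of pore formation, was far more abundant than *CD55*. *CD59* was at 116, 99.8 and 126 FPKM on day 0, 59.9, 65.6 and 67.0 on day 3, 45.1, 63.0 and 48.8 on day 6, and 81.4, 50.1 and 85.0 on day 9. The 0 d libraries lay above all others, and the later days overlapped. *CD59* fell by 1.13 on day 6 against day 0 (adjusted p = 0.00147), which was not called after rescaling between libraries (-0.96). *SUSD4*, a regulator of C3-cutting enzymes, did not exceed 0.29 FPKM. It fell by 1.09 on day 6 (adjusted p = 0.00202), a call that ended with a pseudocount of 1 (-0.22), after rescaling (-0.98) and without the second 0 d library (-0.97) or the first 6 d library (-0.96). *SUSD4* was tested only because of its 0 d values, as its mean without those libraries was 0.0878. *VSIG4*, a receptor for fragments of C3, was listed at 0 in all libraries of 0 d and 3 d and was at 0.08, 0.2 and 0.23 FPKM on day 6. On day 9 it was at 0.12, 0 and 0.25 FPKM. Its mean was below the filter, and without the filter it would be called higher on day 6 against both days (adjusted p = 0.0249 and 0.0179). *CD46*, a cofactor of factor I, was at 22.3 to 48.7 FPKM and was not called. Of the 3 tested genes for receptors, *ITGAX*, a chain of the integrin CR4, rose by 1.31 on day 9 against day 0 (adjusted p = 0.000281) and by 1.09 from day 6 to day 9 (adjusted p = 0.00177). Its highest value was 0.52 FPKM. Neither rise was called with a pseudocount of 1 (0.36 and 0.31), and the later was not called without the second 6 d library (0.94) or the first 9 d library (0.96). *C1QBP* and *C5AR2* were not called.

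**Figure D4:**
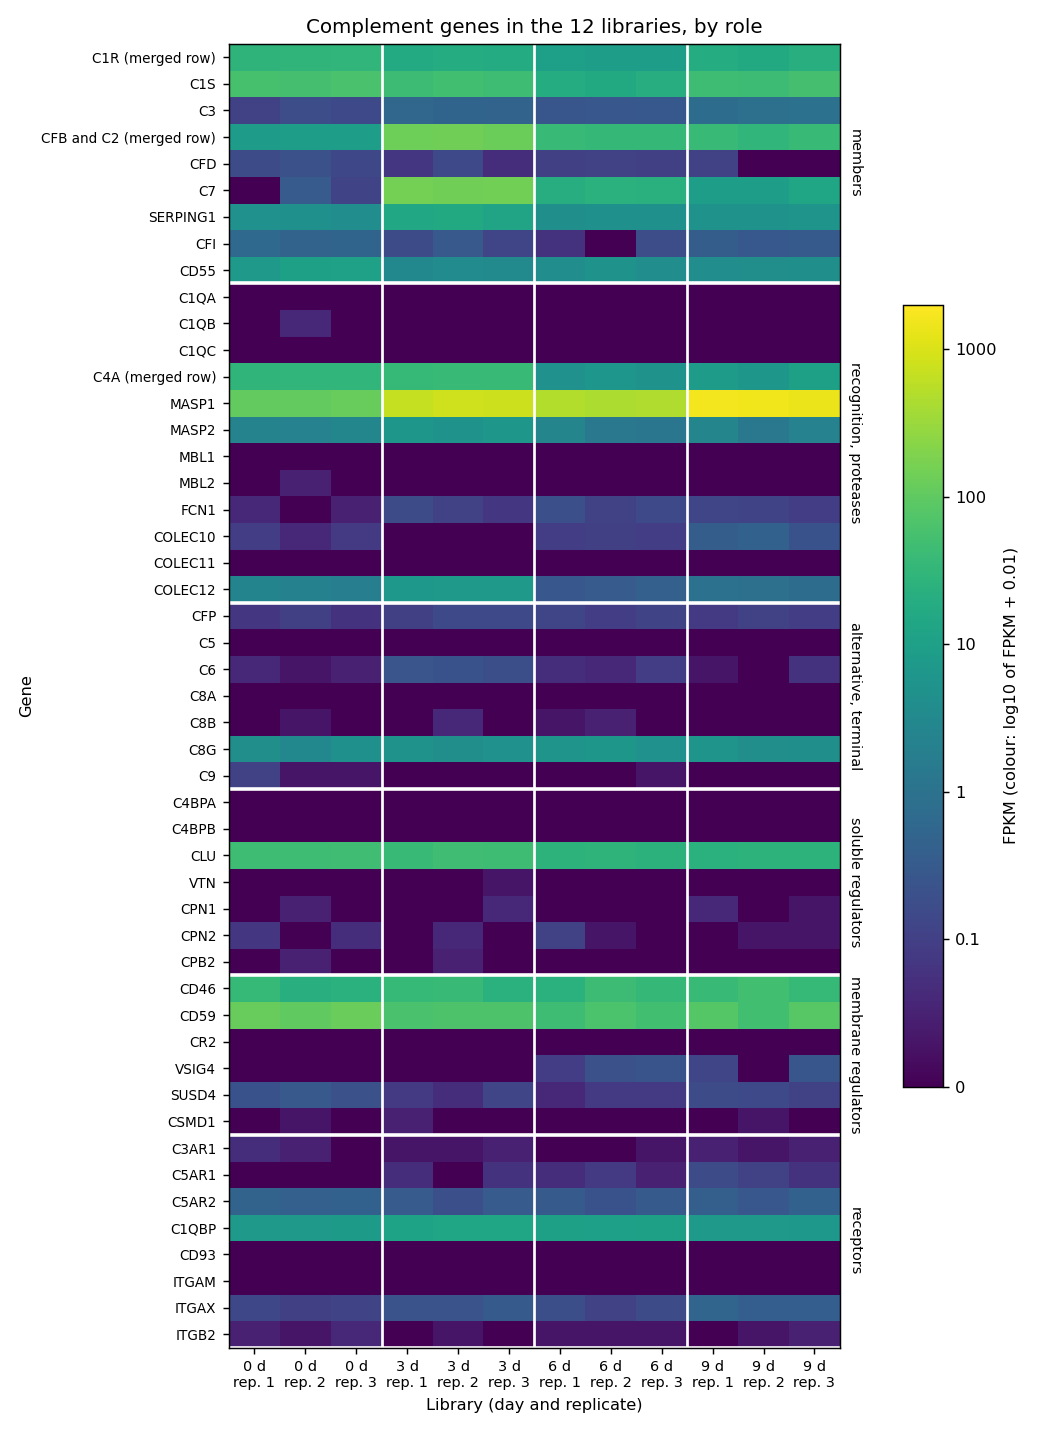
FPKM of the 9 complement genes and of 40 other complement genes (vertical axis, grouped by role) in the 12 libraries (horizontal axis); colour is log10 of FPKM + 0.01, and the colour bar gives FPKM. *MASP1* is the brightest gene in most libraries, and *C1QA*, *C1QC*, *C5* and *C8A* are dark throughout because they are listed at 0.

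Across the 12 libraries, the complement genes described first fell into sets with like courses. These correlations are over log2(FPKM + 0.1), the 12 libraries share 4 days, and they are given as a description. *C7* and *CFB* had a Pearson r of 0.97 (Spearman rho 0.86), and *C1R* and *C1S* an r of 0.96 (rho 0.99). *CFI* went with *C1R* (r 0.88, rho 0.87) and *C1S* (r 0.85, rho 0.91). *CD55* ran opposite to *C7* (r -0.92, rho -0.85) and to *CFB* (r -0.90, rho -0.86). *CFB* and *SERPING1* had an r of 0.83 (rho 0.69). *C3* had its closest relation to *CFD* (r -0.79, rho -0.72), both near the lower end of the scale.

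For each complement gene the 3 mRNAs with the most similar course were taken from the 11325 candidates with a mean FPKM of at least 1. Nearest to *C7* were *OSBPL3* (r 0.991), *HIF1A* (r 0.987) and *CCDC3* (r 0.986). Nearest to *CFB* were *FGF10* (r 0.989), *ENPP1* (r 0.988) and *SPON1* (r 0.986). For *SERPING1* they were *SELENOP* (r 0.992), *PDGFRA* (r 0.990) and *SESN3* (r 0.989). These 3 sets share no name. *C1S* was closest to *TBC1D2B* (r 0.992), *CARHSP1* (r 0.987) and *TGFBRAP1* (r 0.986). *C1R* was closest to *DIS3L* (r 0.983), *TGFBRAP1* (r 0.983) and *TBC1D2B* (r 0.975), so that the pair of proteases share 2 of their 3 nearest genes. *C3* was nearest to *PTGFR* (r 0.969), *CD36* (r 0.967) and LOC112446369 (r 0.966). For *CD55* they were *SYNGR2* (r 0.984), *AMDHD2* (r 0.974) and *THBS3* (r 0.967). The low genes *CFI* and *CFD* had lower values, with LOC615514 (r 0.944), *DENND2A* (r 0.943) and *SGSH* (r 0.937) nearest to *CFI* and *URM1* (r 0.923), *TRIM45* (r 0.903) and *FAM110B* (r 0.879) nearest to *CFD*. After the mean of each day was taken away, r with the 3 nearest genes ran from -0.10 to 0.25 for *C7*, -0.40 to 0.59 for *CFB*, 0.29 to 0.68 for *SERPING1*, 0.74 to 0.88 for *C1S*, 0.23 to 0.84 for *C1R*, 0.18 to 0.31 for *C3*, 0.49 to 0.76 for *CD55*, 0.70 to 0.89 for *CFI* and 0.83 to 0.87 for *CFD*. The nearest genes were picked by r over these same libraries, so the values within days are not independent of that choice. For *CFI* and *CFD*, which lie near 0 FPKM, the choice can also pick shared noise, so their values are no evidence of a link within days.

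The circRNA table, which gives counts of back-spliced reads, holds 2 circRNAs from these genes, both with *C7* as host. CircRNA4939 spans positions 33539124 to 33542645 of chromosome 20 (minus strand, ARS-UCD1.2 by the paper's methods) and has 2 exons. CircRNA4940 spans 33559932 to 33578256 of the same strand and has 7 exons. Each was seen with 1 read, and both reads were in the first 3 d library. The libraries held 5358 to 10729 back-spliced reads in all, so that 1 read is the limit of what could be seen. No circRNA had another of the 9 genes or a gene of the wider complement list as its host.

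Markers of cell types and responses moved over the same days. They are given as whole lists, and their part in the changes of the complement genes was not tested. Calls on day 3 against day 0 can be read beside the 23.3% of all tested mRNAs. Of 13 adipocyte markers, 13 were tested and 9 called on day 3 against day 0 (7 higher, 2 lower). Their summed FPKM was 93.6 to 105 on day 0, 452 to 514 on day 3, 312 to 352 on day 6 and 201 to 227 on day 9, which peaked on day 3 as the complement sum did. The most abundant, *SCD*, a desaturase of fatty acids, rose by 3.34 (adjusted p = 1.51e-08), *DGAT2*, which makes triglycerides, had the largest rise (7.12) and *LEP*, the leptin gene, the largest fall (-4.06). Of the defining genes, *FABP4* was at 3.02 to 3.52 FPKM on day 0 and 86.2 to 94.7 on day 3, a rise of 4.75 (adjusted p = 7.43e-10). *ADIPOQ* did not exceed 1.64 FPKM and *CEBPA* did not exceed 0.26. *CEBPA*, which was not called, was tested only because of its 3 d values (mean 0.0711 without them). Of 11 fibroblast and preadipocyte markers, 10 were tested and 9 called on day 3 (4 higher, 5 lower), and their sum ran from 127187 to 134268 on day 0, 171740.4 to 180027 on day 3, 144088 to 148666 on day 6 and 225783 to 239376 on day 9. Collagen *COL3A1* was the most abundant (fold change 0.26, not called) and made up most of this sum. The list was also summed without *COL3A1*, an alternative chosen after seeing the data. This gave 24366 to 25388 FPKM (0 d), 48706 to 51495 (3 d), 48755 to 51069 (6 d) and 62407 to 65163 (9 d), so that 3 d and 6 d overlapped. *PDGFRA* had the largest rise (2.54) and *CD34* the largest fall (-1.85), which was not called with a pseudocount of 1 (-0.56). Without the 0 d libraries *CD34* would not have been tested (mean 0.0533).

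Of 9 genes of skeletal muscle, 8 were found and tested. Against day 0, 7 were called lower on day 3, 5 on day 6 and 6 on day 9. Of all tested mRNAs, 15.2%, 7.97% and 7.47% were called lower on these days. Their sum was 843 to 965 FPKM on day 0, 271 to 297 on day 3, 385 to 428 on day 6 and 301 to 335 on day 9. *DES*, the intermediate filament desmin, was the most abundant and fell by 1.51 (adjusted p = 6.44e-08), and *CKM*, the muscle creatine kinase, fell by 5.39 (adjusted p = 2.01e-07). The list was also summed without *DES*, an alternative chosen after seeing the data. This gave 471 to 545.5 FPKM (0 d), 146 to 154 (3 d), 75.1 to 99.5 (6 d) and 95.9 to 133 (9 d). The lowest sum was then on day 6 and not on day 3. *MYOD1*, the defining regulator of muscle cells, was at 240 to 303 FPKM on day 0 and at 107 to 113 on day 3. The cells labelled as intramuscular adipocytes thus held mRNAs of muscle cells beside those of fibroblasts on day 0.

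Of 12 macrophage and leukocyte markers, 6 were tested and 5 called on day 3 against day 0 (3 higher, 2 lower). The list's sum was 3.59 to 4.09 FPKM on day 0, 89.4 to 208 on day 3, 17.8 to 32.9 on day 6 and 6.68 to 8.54 on day 9, and *CD163* made up most of it on days 3 and 6. *CD163*, a scavenger receptor of macrophages, was at 0.59, 0.79 and 0.57 FPKM on day 0 and at 204, 114 and 85.2 on day 3, and it rose by 7.40 (SE 0.36, adjusted p = 6.92e-08). *LAPTM5* had the largest fall (-2.32), which was not called with a pseudocount of 1 (-0.93). *PTPRC*, which marks all leukocytes, and *TYROBP* were listed at 0 in all 12 libraries. Of 9 endothelial markers, 3 were tested and limma called 0 on day 3 against day 0, while 2 had an unadjusted p under 0.05. Their sum was 2.52 to 3.74 FPKM over all libraries, *VWF* was the most abundant (fold change -0.33), and *PECAM1* did not exceed 0.03. Without *VWF* the list summed to 1.05 to 1.31 FPKM (0 d), 1.75 to 1.94 (3 d), 0.72 to 0.9 (6 d) and 0.59 to 0.75 (9 d).

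Hepatocytes are the main makers of complement in the body. Of 8 of their markers 2 were tested, and both were called lower on day 3 against day 0. *APOA1*, the most abundant (adjusted p = 0.016), and *TTR* (adjusted p = 6.94e-06) were at 0.24 to 0.82 FPKM on day 0 and listed at 0 in all 3 d libraries, so that no fold is given. Neither was called with a pseudocount of 1, and *APOA1* was not called without the third 0 d library. *TTR* was tested only because of its 0 d values. The 8 markers together summed to 0.8 to 1.35 FPKM on day 0, 0.06 to 0.15 on day 3, 0.16 to 1.47 on day 6 and 0.38 to 0.58 on day 9. Without *APOA1* they summed to 0.55 to 0.88 (0 d), 0.06 to 0.15 (3 d), 0.05 to 0.13 (6 d) and 0 to 0.08 (9 d). *APOH* and *AHSG* were listed at 0 in all libraries, and *ALB* did not exceed 0.09.

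Of 11 genes that respond to glucocorticoids, 10 were called on day 3 against day 0 (9 higher, 1 lower), 9 on day 6 (all higher) and 6 on day 9 (5 higher, 1 lower). Of all tested mRNAs, 23.3%, 11.4% and 10.9% were called on these days, and 8.06%, 3.39% and 3.41% called higher. Their sum was 1542 to 1731 FPKM on day 0, 4710 to 4780 on day 3, 3606 to 3875 on day 6 and 2454 to 2740 on day 9. *CEBPD*, a transcription factor of early adipogenesis, was the most abundant and rose by 1.16 (adjusted p = 4.42e-07) on day 3. *ZBTB16* had the largest rise (9.29, adjusted p = 8.7e-09). *ERRFI1* had the largest fall (-1.01), which was not called with a pseudocount of 1 (-0.96), after rescaling (-0.93), or without the second 0 d (-0.93), the first 3 d (-0.98) or the second 3 d (-0.98) library.

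Of 15 genes of the acute-phase and cytokine response, 11 were tested and 5 rose on day 3 against day 0. The sum was 190 to 202 FPKM on day 0, 1514 to 1549.9 on day 3, 1458 to 1579 on day 6 and 412 to 440.3 on day 9. *PTX3*, a pentraxin that binds C1q, was both the most abundant and the gene with the largest rise (6.87, adjusted p = 3.77e-11). *IL1B* was listed at 0 in all libraries. Of 8 interferon response genes, 7 were found, 4 tested and 1 called on day 3, *IFI6*, which fell by 1.08 (adjusted p = 0.000989). This call ended with a pseudocount of 1 (-0.44), after rescaling (-0.9998) and without the first 3 d library (-0.90). The list summed to 7.48 to 11.1 FPKM on day 0, 4.3 to 7.35 on day 3, 2.73 to 4.23 on day 6 and 5.73 to 7.84 on day 9. *IRF1*, a transcription factor, was the most abundant (fold change -0.92 on day 3, not called). It was called lower without the second 0 d library (-1.15) or the second 3 d library (-1.23). Without *IRF1* the list summed to 3.36 to 4.42 FPKM (0 d), 2.17 to 2.86 (3 d), 1.7 to 3.14 (6 d) and 2.2 to 3.21 (9 d). The glucocorticoid and adipocyte sums thus were highest on day 3, as were *C7*, *CFB* and *SERPING1*. Both stayed so without the most abundant gene of their list, an alternative chosen after seeing the data. In that alternative the endothelial sum was highest on day 3 as well. The macrophage sum was highest on day 3, and the acute-phase sum on days 3 and 6, only with the most abundant gene counted. Without *CD163* the macrophage list summed to 3.02 to 3.5 FPKM on day 0, 4.15 to 4.24 on day 3, 4.59 to 5.15 on day 6 and 3.7 to 4.84 on day 9. Without *PTX3* the acute-phase list summed to 179 to 192 (0 d), 260 to 283 (3 d), 229 to 242 (6 d) and 291 to 342 (9 d), which was highest on day 9.

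**Figure D5:**
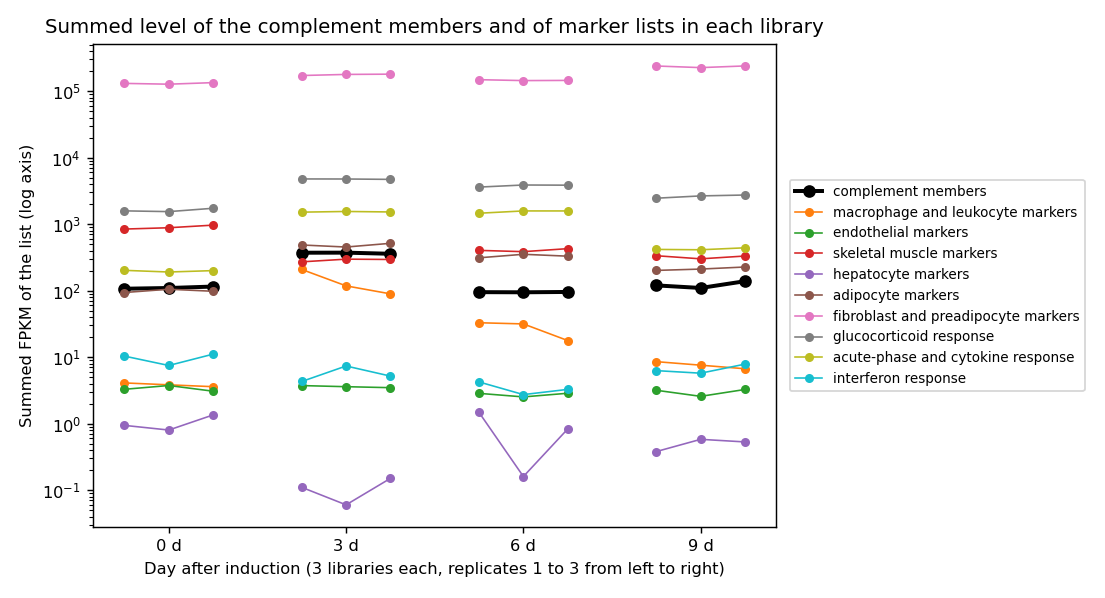
Summed FPKM of the 9 complement genes (black) and of 9 marker lists (colours) in each of the 12 libraries, on a log axis, by day (horizontal axis; points are the 3 libraries of a day). The complement sum is highest on day 3 (358 to 372) and the macrophage sum reaches 89.4 to 208 there.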

How the data were processed

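Long RNA and circRNA were measured in 12 libraries of bovine intramuscular cells. The deposited mRNA values are FPKM, which the authors made with HISAT2 and StringTie. The deposited circRNA values are counts of back-spliced reads, and their 12 SRPBM columns were not used. The labels list HISAT2 2.0 and StringTie 1.3.0, a mouse build and poly(A) selection, and the paper names ARS-UCD1.2 and rRNA depletion.

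The day in each label set the groups. FPKM cannot be turned back into counts, so the 15402 mRNAs with a mean FPKM of at least 0.1 were fitted at once, as log2(FPKM + 0.1), in limma 3.58.1 (lmFit and contrasts.fit, then eBayes, trend on; a mean for each of 4 days, no block), which was tested on simulated data. P-values are two-sided and were adjusted by Benjamini–Hochberg over all tested mRNAs within each of 5 comparisons. A call takes a log2 fold change past 1 in either direction and an adjusted p under 0.05. Names in merged entries (727 of 33714) were split.

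The members and lists were chosen with earlier results of these data known. Named genes are all members, each other complement gene called in at least 1 comparison, the most abundant gene and the largest called rise and fall at 3 d of each marker list, and the 3 nearest mRNAs of each member. Other complement genes and defining markers outside this rule were named after their values were seen. *CR1*, *PAX7* and *IFIT1* were not analysed here. After the first results, 2 planned genes that may not be named were left out of all lists and counts, 1 of the other complement genes and 1 of the interferon response genes. Promoter sequences were not available. Gene neighbours come from RefSeq.

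The alternatives were pseudocounts of 1 and 0.01, no filter, a filter at a mean FPKM of 1, rescaling by the median ratio, only the 6 libraries compared, a replicate block, eBayes without a trend, leaving out each library and, added later, leaving out merged entries. Used were R 4.3.3, Python 3.11.15, NumPy 2.4.6, pandas 2.3.3 and Matplotlib 3.10.9.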

Additional observations from a re-analysis of the deposited data

Results flagged for a closer look

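Of the complement genes, *C4A* and *COLEC12* had libraries on opposite sides of 0 d on 2 days in a row of the series, 3 d and 6 d. All 3 d libraries of each gene were above all of 0 d, and all 6 d libraries were below them. The log2 fold change of 6 d against 3 d was -2.75 for *C4A* and -4.03 for *COLEC12*. As the genes were picked for this pattern, these values describe it, and the difference was not tested apart from that choice. *COLEC10* lay below 0 d at 3 d and above it at 9 d. The rise of *C4A* at 3 d against 0 d was itself not called (0.29, adjusted p = 0.153). The entry of *C4A* merges that gene with LOC107131209.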

How the results depend on the processing

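Of 555 fold changes of members under other settings, 525 kept their direction and their side of the threshold, 19 were no longer called, 4 became called and 7 turned their sign. Of 550 of other named genes, 522 kept both, 26 were no longer called and 2 became called. Another filter, a replicate block, no trend or only the 6 libraries compared leave the estimated fold change as it was. Under these settings the sign could not turn, and a call could move only through the adjusted p or the filter. The sign turned where the change was near 0: *SERPING1* at 6 d against 0 d (-0.0712 to 0.0491 with each library left out, below 0 without 0 d replicate 3, 6 d replicate 2 (-0.0236) or 6 d replicate 3 (-0.0021)), *CFB* from 6 d to 9 d after rescaling (0.0178) and with libraries left out (-0.0809 to 0.0734, above 0 without 6 d replicate 1 (0.0267) or 9 d replicate 2), and *CD55* from 6 d to 9 d (-0.1103 to 0.0712, above 0 without 6 d replicate 2).

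Of 130 counts with all libraries kept, 114 stayed within 1.5 times and 16 moved. A pseudocount of 1 lowered the count of all mRNAs to 2184 (3 d against 0 d), 967 (6 d against 0 d), 888 (9 d against 0 d), 1688 (6 d against 3 d) and 368 (9 d against 6 d). With it, 2 members were called at 9 d against 0 d (*C7* and *CFB*) and 2 from 6 d to 9 d (*C1S*, which kept its call, and *C7*, newly called lower), and 2 and 1 other complement genes. A pseudocount of 0.01 called 6 other complement genes at 3 d, rescaling 3 at 6 d against 0 d, and no filter called 5 from 3 d to 6 d. A mean FPKM of at least 1, under which *C3* and *CFI* are not tested, gave 1114 mRNAs and 3 other complement genes at 9 d against 0 d, and 2 members and 2 other complement genes from 6 d to 9 d. Beyond fewer genes tested, the cause was not tested.

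With each library left out, members called were 5 to 6 (3 d against 0 d), 5 to 6 (6 d against 0 d), 4 to 4 (9 d against 0 d), 4 to 5 (6 d against 3 d) and 3 to 4 (9 d against 6 d). All mRNAs called were 3485 to 3660, 1689 to 1750, 1541 to 1684, 2805 to 2920 and 631 to 687, and other complement genes 3 to 4, 4 to 5, 5 to 5, 3 to 3 and 3 to 4. The fourth of the other complement genes at 3 d was *SUSD4* (-0.9307 in the main fit), called without 0 d replicate 3 (-1.0017) or 3 d replicate 3 (-1.1014).

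A block for the replicate number gave the same counts of members (6, 6, 4, 4 and 4) and 3591, 1746, 1683, 2933 and 657 mRNAs. The paper speaks of 1 batch of cells over the days, and neither it nor the labels say that libraries with the same number share a culture or an animal. Their deviations from the day means had a mean correlation of 0.0274 over 18 pairs (-0.0981 to 0.1124), against -0.0137 over 36 pairs with different numbers. The pairs of replicate 3 were all above 0 (0.0292 to 0.1053), but not every pair was over 0.1, and 0 d replicate 2 went with 3 d replicate 1 (0.1829) rather than with its own number (-0.0981), so no block was used. FPKM without counts limit what can be said of genes near 0, such as *CFD*, *CFI* and *C3*.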
